A study of Mus musculus with 8 samples.

Results

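Among 129304 regions listed in a ChIP-seq table of mouse microglial nuclei, 5066 were distal regions that lie in a short interspersed nuclear element (SINE). A region was taken when it lay on chromosomes 1 to 19 of mm10, was more than 1000 bp from the nearest annotated transcription start site, and had a SINE in the detailed annotation of its position. These regions made up 5.14% of the 98640 distal autosomal regions. The rule uses position and annotation and not the measured signal. The list itself was made by the authors: its deposited names describe merged ATAC-seq (open chromatin) peaks and mention wt, sgshko and eko but not GrnKO. How it was chosen is not given in the sources used here, so counts and shares describe this list and not all SINEs with the mark. By family, 1902 were in B2 elements, 1345 in B4, 839 in Alu (the mouse B1 elements and their relatives), 793 in MIR, 155 in ID, 21 in Deu and 11 in tRNA elements. A further 131 SINE regions within 1000 bp of a start site, 176 on the X and 1 on the Y chromosome were not included.

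The table gives acetylation of lysine 27 of histone H3 (H3K27ac), which is found at promoters and enhancers in use. It was measured in C57BL/6 mice 2 years old that were wild type (WT) or carried a knockout of the progranulin gene (GrnKO), whose allele is not given in the sources used here. Nuclei of brain were sorted by flow cytometry as positive for PU.1, a transcription factor of microglia and other myeloid cells, and negative for OLIG2 and NEUN, which mark oligodendrocyte-lineage and neuronal nuclei. Each genotype had 2 H3K27ac libraries and 2 input libraries of sheared chromatin without immunoprecipitation, each made from a pool of 2 mice. Both genotypes shared the strain, age, sort and antibody. Progranulin, the product of Grn, is a secreted glycoprotein that is delivered to lysosomes, and its loss is known to disturb lysosomal function in microglia.

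SINEs are short non-coding retrotransposons that were copied into the genome by the enzymes of LINE elements. B2, B4, ID and MIR elements derive wholly or partly from transfer RNA genes, and B1 elements from the RNA of the signal recognition particle. Their internal promoters are read by RNA polymerase III. MIR elements are old and shared across mammals, whereas B1 and B2 elements are specific to rodents, and the youngest B2 subfamilies are near-identical to each other. Copies of B2 elements, including the older B3 group, are known to have spread binding motifs of CTCF, a protein that anchors chromatin loops. Short reads from near-identical copies are hard to place, so young copies are measured less reliably than old ones.

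Sequence was available for the few SINE regions that overlap a RefSeq promoter window (GRCm38.p6, the assembly also called mm10), which spans 250 bases before and 50 after a start site. Of 32851 such windows, 37 overlapped 36 of the 5066 regions, and 9 held the centre of the region. These start sites belong mostly to predicted genes that the annotation of the deposited table does not use. The first pair below aligns stretches of 2 windows that hold the centre of a region annotated to B3. Neither stretch of this pair reaches the centre itself, so their bases need not all lie in the B3 element. Capitals mark bases that are identical in the pair when aligned. The Gm46229 stretch is chr10:67311484-67311578 on the plus strand, and the Gm42376 stretch, in a region nearest to Tyrobp, is chr7:30394978-30395076 on the minus strand.
Gm46229 B3: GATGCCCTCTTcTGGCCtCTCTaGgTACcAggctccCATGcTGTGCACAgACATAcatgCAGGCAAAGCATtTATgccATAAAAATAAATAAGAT
Gm42376 B3: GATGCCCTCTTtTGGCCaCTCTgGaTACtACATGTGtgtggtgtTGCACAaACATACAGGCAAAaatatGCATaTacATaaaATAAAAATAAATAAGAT
The aligned stretches shared 74 of 110 columns, gaps included, or 67.3%. This is the best local alignment and not a measure of how far whole elements have diverged. Both windows held the core of the CTCF motif, searched on both strands, as did 5 of the 37 windows (13.5%) and 2.44% of the 32544 distinct promoter windows. Of the 7 motifs searched, those of C/EBP (TTGCNNAA), PU.1 (GAGGAAGT) and MiT/TFE (TCACGTG) were in 13.5%, 5.41% and 5.41% of the 37 windows, against 10.8%, 3.11% and 3.79% of all. MEF2 and polymerase III B box letters were in none, and in only 0.111% and 0.123% of all, so their absence from 37 windows says little. A match of letters is a description and not a binding site. A longer stretch of the Gm46229 copy (chr10:67311400-67311550, plus strand) was aligned with the B3 copy at Gm20506 (chr17:34247192-34247338, minus strand), in a region nearest to H2-Ob.
Gm46229 B3: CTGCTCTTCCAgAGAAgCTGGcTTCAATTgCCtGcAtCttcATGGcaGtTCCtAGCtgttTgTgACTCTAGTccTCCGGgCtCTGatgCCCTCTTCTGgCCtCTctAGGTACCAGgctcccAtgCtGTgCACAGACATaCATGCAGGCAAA
Gm20506 B3: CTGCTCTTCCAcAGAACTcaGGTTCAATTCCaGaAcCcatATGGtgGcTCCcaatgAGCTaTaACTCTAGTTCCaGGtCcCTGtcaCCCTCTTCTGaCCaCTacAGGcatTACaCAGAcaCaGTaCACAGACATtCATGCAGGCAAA
Here 109 of 162 columns were identical, and the Gm20506 window did not hold the CTCF core. In values scaled to 10000000 tags per library with a further trimmed-mean (TMM) factor, the region at Gm46229 carried 25 and 9.17 H3K27ac tags in the WT libraries and 15.0 and 18.5 in the GrnKO libraries. The region at Gm42376 carried 55.9 and 71.0 tags in WT and 79.8 and 73.4 in GrnKO, and the region at Gm20506 23.1 and 11.5 against 2.26 and 4.85. None of the 3 passed the test between genotypes described below, with adjusted p-values of 0.927, 0.568 and 0.0913 (limma).

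An ID4_ element at the start of 4933424M12Rik (chr4:107783609-107783729, plus strand) and an ID_B1 element at Gm36897 (chr6:136463560-136463680, plus strand) show other families at a region centre, with the 21 bases around the centre in capitals.
4933424M12Rik ID4_: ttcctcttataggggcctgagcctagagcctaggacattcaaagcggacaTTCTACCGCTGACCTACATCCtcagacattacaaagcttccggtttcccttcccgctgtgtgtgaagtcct
Gm36897 ID_B1: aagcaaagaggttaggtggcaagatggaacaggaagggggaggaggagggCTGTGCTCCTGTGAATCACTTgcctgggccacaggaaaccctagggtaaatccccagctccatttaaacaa
The Gm36897 window held a match to the AP-1 motif TGANTCA, which was present in 5 of the 37 windows (13.5%) and in 7.79% of all distinct windows. Its region carried 149.8 and 205 tags in WT and 153 and 161 in GrnKO. The region at 4933424M12Rik carried 49.3 and 42.7 tags in WT and 33.7 and 27.4 in GrnKO. Neither differed between genotypes past the threshold (adjusted p = 0.681 and 0.309, limma). The single region past the threshold with a whole window is annotated to a B1F element and nearest to Selenop, the gene of a secreted selenium carrier. The window is that of Gm30057 (chr15:3250805-3251104, plus strand), shown with the 50 bases after the start in capitals. It does not hold the centre of the region, so these bases need not be the B1F element.
Gm30057 window: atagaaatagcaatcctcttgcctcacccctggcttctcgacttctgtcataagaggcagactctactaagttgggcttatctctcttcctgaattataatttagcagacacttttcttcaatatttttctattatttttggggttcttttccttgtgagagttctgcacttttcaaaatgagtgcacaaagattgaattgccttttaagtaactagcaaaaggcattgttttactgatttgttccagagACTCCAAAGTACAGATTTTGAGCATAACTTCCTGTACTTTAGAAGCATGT
This region carried 7.43 and 13.1 tags in WT and 51.5 and 27 in GrnKO, so that both GrnKO values lay above both WT values (log2 change 1.81, adjusted p = 0.0223, limma).

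The H3K27ac libraries held 15491642.5 to 20030832 tags and the inputs 4078179 to 14415969. Over the 3 regions within 1000 bp of the Grn start, H3K27ac was 1313 and 1039 scaled tags in WT and 6.79 and 6.00 in GrnKO, as the labels give the genotypes. WT replicate 1 stood apart: 49.4% of its tags lay in listed regions, against 63.3% to 65.7% in the other H3K27ac libraries, and its TMM factor was 0.825 against 1.04 to 1.08. Xist and Y-linked start sites differed between replicates 1 and 2 in both genotypes (Xist 81.7 and 128 tags in replicates 1, 0 and 5.49 in replicates 2). Start sites of 9 of 10 microglial marker genes had listed regions, with 8293 and 9608 summed tags in WT and 7063 and 7390 in GrnKO. Markers of neurons and of T, B and NK cells were at 0 to 5.08 summed tags. Markers of oligodendrocytes and astrocytes summed to 189.6 to 441 tags in each library. Markers of border macrophages and monocytes rested on 4 of 9 genes and summed to 316 and 355 tags in WT against 474 and 371 in GrnKO. Among them Ms4a7 carried 37.2 and 29.6 tags in WT and 131.5 and 105.4 in GrnKO. The other measured genes of this list, Mrc1, F13a1 and Pf4, overlapped between genotypes. Mrc1 carried 182 and 228 tags in WT and 231 and 197.5 in GrnKO, and F13a1 41.8 and 56.6 against 53.7 and 37.4. Pf4 carried 55.1 and 41.1 tags in WT and 57.4 and 30.4 in GrnKO. Endothelial markers rested on 2 of 5 genes and summed to 55.5 and 76.2 tags in WT against 172.5 and 180.4 in GrnKO, where Flt1 carried 144 and 144.2. The part of these differences in the results below was not tested.

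SINE families differed widely in how much H3K27ac they carried, and B2 regions carried the least. Mean H3K27ac per region was 16.7, 16.5, 16.3 and 16.6 TMM-scaled tags in B2 elements (WT 1, WT 2, GrnKO 1, GrnKO 2). In MIR elements it was 53.0, 55.0, 54.4 and 55.0, in B1 elements 47.7, 49.9, 48.8 and 49.3, and in B4 elements 46.4, 47.6, 46.4 and 46.6. The 4 libraries agreed closely within each family, which TMM scaling favours because it aligns the libraries over all tested regions. The B2 mean lay below that of every other family shown in all 4 libraries. ID regions carried 48.4 to 51.4 tags and regions outside repeats 45.3 to 46.7. Inputs did not show this gap: they had 3.41 to 4.85 scaled tags in B2 regions and 3.36 to 3.77 in SINE regions of all other families, slightly more in B2 in each of the 4. The median B2 region held 1.70 to 3.13 H3K27ac tags, near the level that 3 tags give in these libraries (1.5 to 1.94), against 10.5 to 12.5 in the other families. In 251 B2 regions (13.2%) all 4 libraries were at or under 3 tags, compared with 154 (4.87%) of the other SINE regions.

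**Figure D1:**
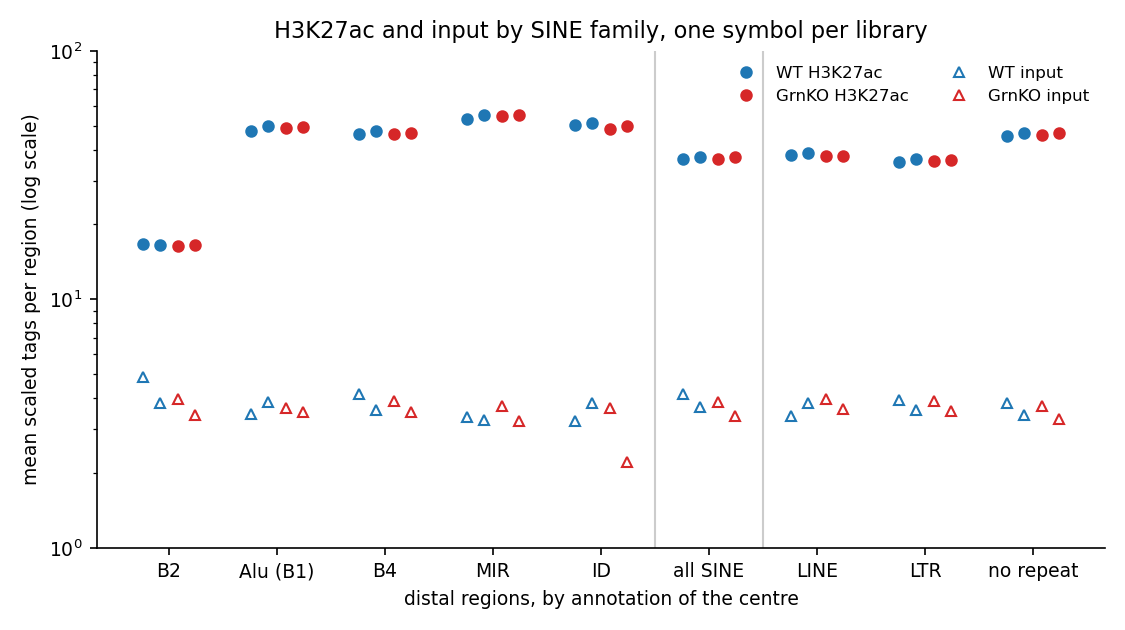
Mean scaled tags per distal region (log axis) for SINE families, all SINE regions, LINE, LTR and regions outside repeats, with 1 symbol per library: filled circles are TMM-scaled H3K27ac and open triangles input at the authors' scaling. The B2 circles sit at 16.3 to 16.7 while the inputs of all sets overlap.

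Within families the level followed the element. Of 36 SINE elements, 27 had at least 30 regions. B2_Mm2, a young B2 subfamily, had the lowest H3K27ac of the 27, with 7.88 and 7.03 tags in WT and 7 and 7.2 in GrnKO over 290 regions. B3 regions carried 15.7 to 16.1 tags and B3A regions 22.7 to 23.6. At the other end, PB1 regions, an old relative of B1, carried 75.7 and 78.6 tags in WT and 81.6 and 82.3 in GrnKO over 43 regions. MIR3 followed with 65.8 to 68.7 tags over 179 regions.

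SINE regions took 4.29% ± 0.0130 (SD, n = 2) of distal H3K27ac tags in WT and 4.28% ± 0.0208 (n = 2) in GrnKO, a difference smaller than the spread between replicates (exact permutation test, two-sided, p = 1). A test of 2 libraries against 2 cannot give an exact p under 0.333. The inputs placed 5.42% ± 0.177 (SD, n = 4) of their distal tags in SINE regions, above all 4 H3K27ac libraries (exact permutation p = 0.0286, adjusted 0.0571 over 6 tests). In B2 regions the share was 0.719% ± 0.0121 (SD, n = 4) for H3K27ac and 2.16% ± 0.206 (n = 4) for input, again without overlap (exact permutation p = 0.0286, adjusted 0.0571). MIR regions went the other way, with 0.985% ± 0.00824 (n = 4) of H3K27ac tags and 0.767% ± 0.0388 (n = 4) of input tags (exact permutation p = 0.0286, adjusted 0.0571). For B1, B4 and ID regions the exact p was 0.143, 0.657 and 0.0857. These tests of H3K27ac against input take all libraries as independent, although each input shares its pool with an H3K27ac library. They ignore this pairing, so their p-values are given as a description and do not measure the strength of evidence.

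H3K27ac tags divided by the input tags of their own pool gave ratios of 7.25 and 10.5 over all SINE regions in WT and 10.3 and 11.9 in GrnKO. WT replicate 1 was the lowest and the groups overlapped (exact permutation p = 0.667, two-sided). B2 regions had ratios of 2.84 and 4.47 in WT and 4.43 and 5.27 in GrnKO. MIR regions had 13 and 17.4 in WT and 15.8 and 18.4 in GrnKO, so that the lowest MIR ratio was above the highest B2 ratio. The ratios did not overlap between genotypes in B1 regions (11.4 and 13.4 in WT, 14.4 and 15.2 in GrnKO) and ID regions (12.7 and 13.8 in WT, 14.3 and 24.5 in GrnKO). Both reached the smallest exact p the design allows, 0.333, so the test cannot show a difference.

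SINE regions lay in introns in 61.3% of cases and between genes in 38.7%, with a median distance of 13884 bp to the nearest start site. Introns held 52.1% of all distal regions. Another listed region overlapped 37.2% of the SINE regions, so neighbouring values are not independent. At the distance limit, the nearest region inside was a B2_Mm1t element 1003 bp from Rc3h2 (11.7, 0.524, 0.849 and 0 tags in WT 1, WT 2, GrnKO 1 and GrnKO 2). The nearest outside was an ID_B1 element 1000 bp from Rhbg (2.35, 0, 0.566 and 2.31 tags).

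The comparison of genotypes asks which SINE regions carry more or less H3K27ac without progranulin. In GrnKO, 212 SINE regions had higher and 89 had lower H3K27ac than in WT at an adjusted p under 0.05 (limma on log2 of TMM-scaled tags plus 1, adjusted over all regions tested). These 301 were 11.3% of the 2659 SINE regions with enough tags to be tested. Over all 80728 tested regions 9.71% passed (6.8% higher and 2.92% lower), and over all tested distal regions 11.5% (8.08% higher and 3.42% lower). The SINE share was thus close to that of distal regions as a whole. The filter asks for 2 libraries at the minimum. In 41 of the 212 higher and 5 of the 89 lower regions only the genotype with the higher signal had both libraries there, so that these regions entered the test through it. In the 1951 SINE regions with all 4 libraries at the minimum, 171 were higher and 84 lower (13.1%, against 13% of such distal regions). In sorted bulk nuclei, a change of the mark within a cell type and a change in the mix of cells cannot be told apart. The median log2 change was 0.01 over the tested SINE regions and -0.00 over all tested regions. At least a 2-fold change was reached by 189 of the 301, out of the 2659 tested, 158 higher and 31 lower. Of all tested regions 6.26% did so, and of tested distal regions 7.52%. Both GrnKO values lay above both WT values in 28.1% of tested SINE regions and below them in 24.9%, against 27% and 25.6% of all tested regions and 28.4% and 26.4% of distal regions. edgeR called 273 SINE regions, where 8.58% of all regions passed, and DESeq2 303, where 9.43% did.

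The counts depended on single libraries and on the scaling. Leaving out a WT library raised the 301 calls to 514 (replicate 1) and 551 (replicate 2), and leaving out a GrnKO library lowered them to 86 (replicate 1) and 120 (replicate 2). Each of these fits leaves 1 library in an arm, which is assumed to vary like the pair of the other genotype, and the GrnKO pair was closer than the WT pair (correlation over 2659 tested SINE regions 0.941 and 0.890). The share of all regions past the threshold moved with them, to 17.3% and 19.4% without a WT library and 2.87% and 4.03% without a GrnKO library. Under the authors' scaling without TMM the median over all tested regions was 0.22, 8.56% of them passed, and the 260 SINE calls split into 247 higher (95%) and 13 lower, against 70.4% higher with TMM. Changes are therefore given relative to the TMM scale. With input subtracted, 14 SINE regions passed (0.527% of those tested, against 0.499% of all regions).

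**Figure D2:**
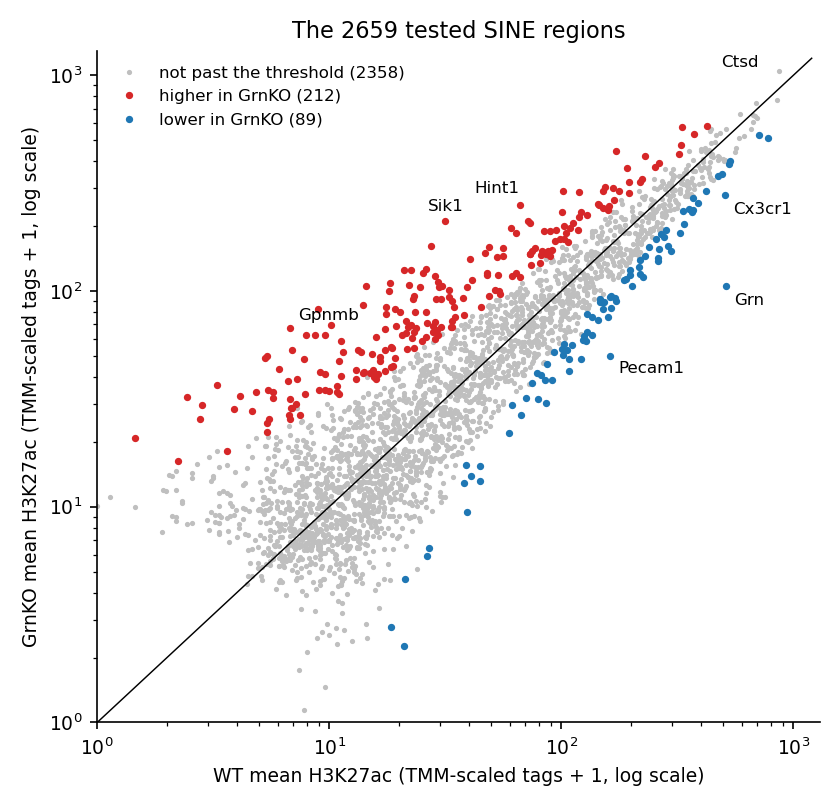
Mean GrnKO against mean WT H3K27ac (TMM-scaled tags plus 1, both axes log) for each of the 2659 tested SINE regions; the line marks equal levels. The 212 higher regions reach down to low WT levels, while the 89 lower regions lie mostly at higher WT levels.

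The levels of higher and lower regions are given as a description, since the WT level enters the change that sorts them. The 212 higher regions had a median WT level of 25.9 tags and a median GrnKO level of 83.4. The 89 lower regions had a median of 152 tags in WT and 88.1 in GrnKO. Over all distal regions past the threshold these medians were 28.5 and 87.3 tags for the higher and 165 and 91.6 for the lower. Fitted log2 changes ran from 0.43 to 3.82 among the higher and from -3.20 to -0.40 among the lower regions. In the lowest quartile of mean signal 16 of 665 tested SINE regions passed (2.41%), and in the highest quartile 128 of 665 (19.2%). In the same ranges 2.62% and 17.8% of all distal regions passed. The share of higher calls was 81.2% in the lowest quartile and 55.5% in the highest, against 85.9% and 54.5% of all distal calls in the same ranges. Of the higher regions 59.4% were intronic and of the lower 59.6%, and the median distance to a start site was 15653 bp and 9299 bp. Over all tested SINE regions 63.6% were intronic, at a median of 14042 bp. Among all distal regions past the threshold 54.2% of the higher and 50.3% of the lower were intronic. Their median distances were 20897 bp and 17585 bp.

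Every large family held regions that changed. B1 elements had 53 higher and 17 lower of 571 tested, B4 elements 69 and 34 of 860, and MIR elements 51 and 22 of 532. ID elements had 5 in each direction of 110 tested. B2 elements had 31 higher and 11 lower of 566 tested, or 7.42%, the lowest share of these 5 families. MIR had the highest, with 13.7%. The test needs a minimum of tags, and it reached 29.8% of B2 regions but 66.2% of the other SINE regions. Within quartiles of mean signal, B2 regions passed in 2.06%, 7.05%, 8.04% and 17.3% of cases from lowest to highest, and other SINE regions in 2.55%, 9.23%, 16.3% and 19.6%. The B2 shares rest on 4, 11, 9 and 18 regions past the threshold. The family medians of log2 change ran from -0.08 (ID) to 0.04 (MIR). A difference in response between families was not tested.

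**Figure D3:**
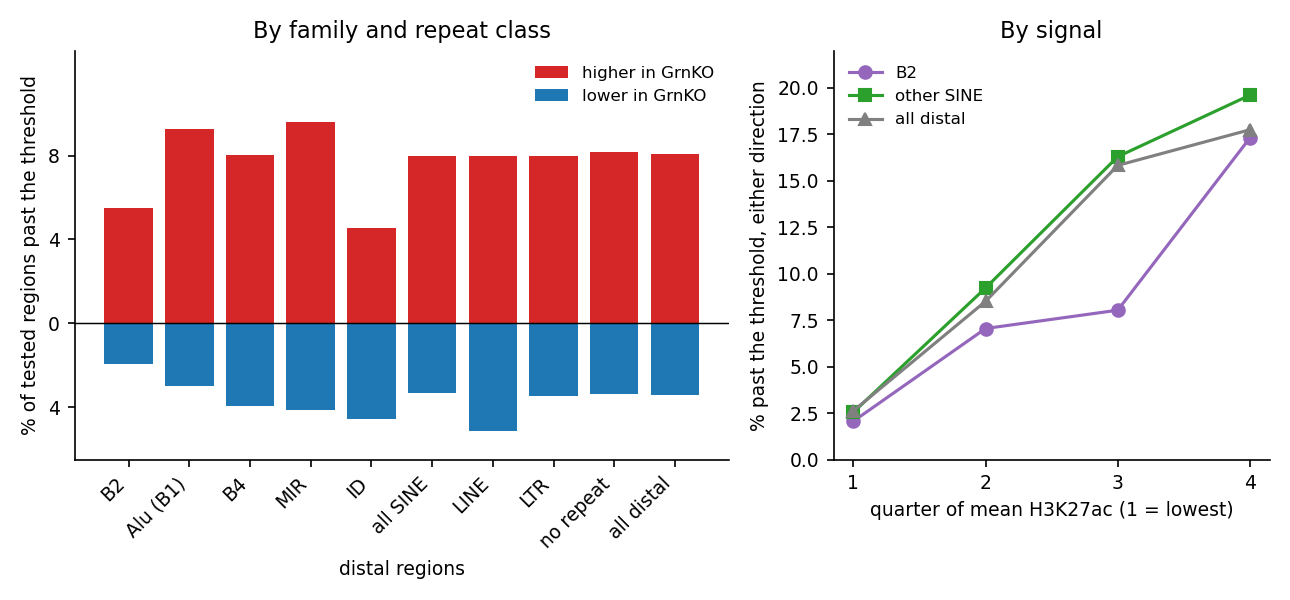
Left, percentage of tested distal regions past the threshold, higher (upward bars) and lower (downward bars) in GrnKO, by SINE family and repeat class. Right, percentage past the threshold in either direction by quartile of mean H3K27ac among tested SINE regions, with B2 regions at 2.06% to 17.3% and other SINE regions at 2.55% to 19.6%.

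By element, the counts varied more, on small numbers, around the 11.3% of all tested SINE regions. The elements given here were chosen after their values were seen. PB1D10 elements, an old B1 relative, had 16 higher and 2 lower of 106 tested (17%). PB1 elements had 6 higher and 3 lower of 34 tested (26.5%). B4 elements in the narrow sense had 16 higher and 6 lower of 125 (17.6%), and MIR elements in the narrow sense 20 and 7 of 156 (17.3%). None of the 53 tested B2_Mm2 regions passed with limma, where 4 had an unadjusted p under 0.05, edgeR called 0 and DESeq2 called 1. None of the 23 tested B1_Mus1 regions passed either (6 at an unadjusted p under 0.05, 0 by edgeR and 0 by DESeq2), and their median log2 change was -0.33. B1_Mus1 is among the youngest B1 subfamilies. Among other elements the share was 8.16% in PB1D9, 8.89% in PB1D7, 10% in PB1D11 and 9.16% in MIR3. It was 16.7% in B1_Mur1 and 8% in B1_Mus2. A relation of these shares to the age of the elements was not tested.

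The 8 higher regions with the smallest p-values, picked among those with both GrnKO values above both WT values, differed in their WT level. A MIRb element 20968 bp from the start of Sik1, which encodes a salt-inducible kinase, lies between genes at chr17:31834436-31835236. It carried 34.8 and 26.2 TMM-scaled tags in WT and 222 and 197 in GrnKO. Both GrnKO libraries lay far above both WT libraries, a 6.88-fold difference of means (log2 change 2.75, SE 0.25, adjusted p = 3.62e-06, limma). A B4 element in the first intron of Tst (chr15:78401665-78402465), the gene of the mitochondrial sulfurtransferase rhodanese, carried 25.4 and 27.5 tags in WT and 159 and 162 in GrnKO. The replicates were close within each genotype and the groups did not overlap (6.06-fold, log2 change 2.56, SE 0.26, adjusted p = 1.05e-05).

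A B3A element 18083 bp from Hint1 (chr11:54884066-54884866) carried 70.8 and 60.5 tags in WT and 259.9 and 238 in GrnKO. The gap between genotypes was several times that between replicates (3.80-fold, log2 change 1.91, SE 0.20, adjusted p = 1.4e-05). An ID_B1 element 1301 bp upstream of Sqstm1 (chr11:50211721-50212521), the gene of the autophagy receptor p62, carried 14.9 and 28.3 tags in WT and 127 and 121 in GrnKO. Both GrnKO values were above both WT values (5.75-fold, log2 change 2.54, SE 0.32, adjusted p = 7.05e-05). A MIRb element in intron 9 of Ncoa6, nearest to Trp53inp2 (chr2:155404439-155405239), a gene of autophagosome formation, rose from 98.9 and 102 tags to 307 and 273. It was the only region of these 8 with no other region past the threshold within 10000 bp.

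PB1D10 elements gave 2 of the 8 strongest. The copy in intron 2 of Nat9 (chr11:115184786-115185586), which encodes an acetyltransferase, carried 9 and 17.8 tags in WT and 100.7 and 107 in GrnKO. The copy 3300 bp upstream of Spsb2 (chr6:124804961-124805761), a substrate adaptor of ubiquitin ligases, carried 28.9 and 21.5 tags in WT and 131 and 121 in GrnKO. Neither pair of groups overlapped (log2 changes of 2.94, SE 0.36, and 2.29, SE 0.28). A B4 element nearest to 1110002J07Rik had the highest level of the 8, with 164 and 176 tags in WT against 441 and 451 in GrnKO (2.62-fold, adjusted p = 1.49e-05). In the ID family, an ID4 element in intron 3 of Bnip3l, a receptor of mitophagy, carried 59.0 and 51.6 tags in WT and 117 and 172 in GrnKO (adjusted p = 0.0017). An ID4_ element nearest to 1700001K23Rik carried 28.6 and 38.5 tags in WT and 87.4 and 80.0 in GrnKO (adjusted p = 0.00732). The call near 1700001K23Rik was lost without either GrnKO library and that in Bnip3l without GrnKO replicate 2.

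**Figure D4:**
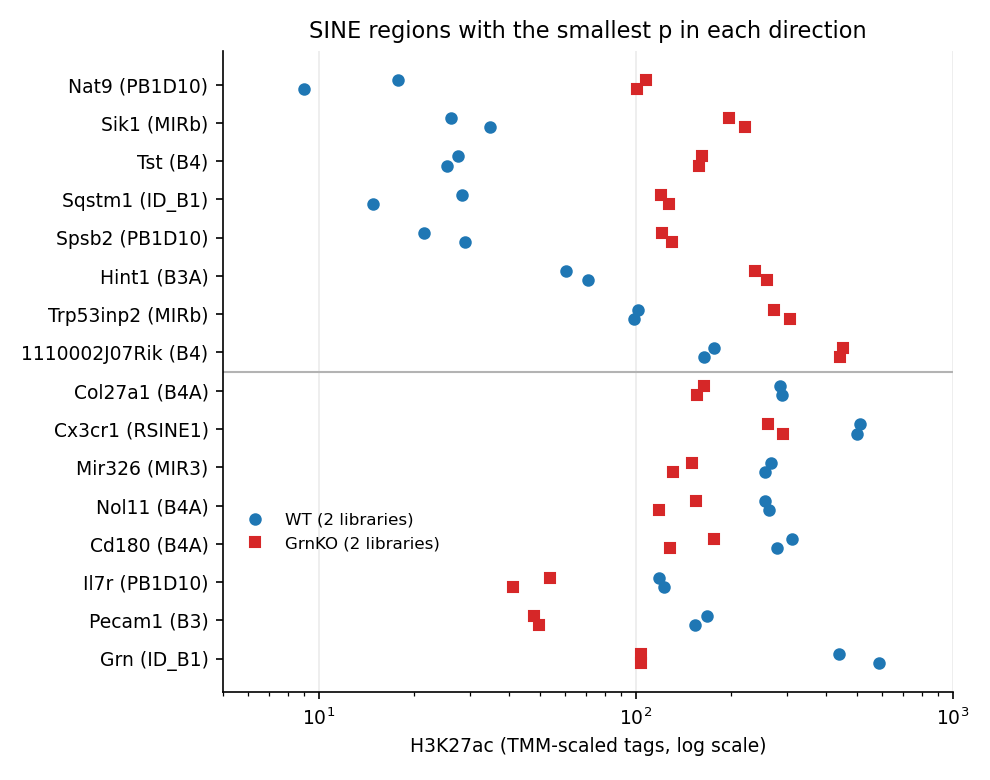
H3K27ac (TMM-scaled tags, log axis) in each of the 4 libraries for the 8 higher (upper) and 8 lower (lower part) SINE regions with the smallest p, named by nearest gene with the element in brackets. WT circles and GrnKO squares are separate for each of the 16 regions because the rule that picked them asks for it.

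The lower region with the smallest p lies beside the targeted gene. An ID_B1 element 1024 bp upstream of Grn (chr11:102428898-102429698) carried 585 and 438 tags in WT and 104 and 104 in GrnKO. The GrnKO replicates agreed, the WT replicates were further apart, and the groups were widely separate (4.92-fold lower, log2 change -2.27, SE 0.17, adjusted p = 6.76e-07, limma). Because it adjoins the targeted gene, the deletion and a change of the mark cannot be told apart there. A B3 element in intron 11 of Pecam1 (chr11:106679691-106680491), an adhesion molecule of endothelial and myeloid cells, carried 154 and 168 tags in WT and 49.5 and 48.0 in GrnKO. GrnKO was clearly below WT (3.30-fold lower, log2 change -1.70, SE 0.23, adjusted p = 0.000113). The Pecam1 start site itself carried 43.0 and 44.8 tags in WT and 28.6 and 36.2 in GrnKO, whereas that of Flt1, the other endothelial marker with a region, was higher in GrnKO.

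Cx3cr1, the fractalkine receptor that marks homeostatic microglia, held 2 lower regions in its first intron. The RSINE1 element (chr9:120064675-120065475) carried 501 and 512 tags in WT and 292 and 261 in GrnKO. The input of WT replicate 1 had 162 scaled tags there and the other inputs 0. The WT replicates were close and the groups were separate (1.83-fold lower, log2 change -0.87, SE 0.13, adjusted p = 0.000353). The neighbouring PB1 element carried 348 and 424 tags in WT and 287 and 223 in GrnKO (adjusted p = 0.0214). Each of these 2 regions overlapped 2 other listed regions that also passed. Further lower regions were a PB1D10 element 35336 bp upstream of Il7r, a cytokine receptor chain (123 and 119 against 41.0 and 53.8 tags), and a B4A element upstream of Cd180, a toll-like receptor homologue of myeloid and B cells (279 and 311 against 128 and 177). A MIR3 element in the first intron of Arrb1, listed under Mir326, fell from 255 and 267 tags to 131 and 150.4. B4A elements nearest to Col27a1 and Nol11 fell from 255 to 289 tags in WT to 119 to 165 in GrnKO.

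The scaling mattered most for the lower calls. Of the 45 regions past the threshold named by rule, all 23 higher kept their calls under the authors' scaling and 5 of 22 lower did. Those 5 were the regions at Grn, Pecam1, Il7r, Acvrl1 and Tgfbr1. For the Cx3cr1 RSINE1 region that setting gave a log2 change of -0.65 (adjusted p = 0.139), for Cd180 -0.74 (0.0975), for Col27a1 -0.61 (0.168), for Nol11 -0.71 (0.109) and for Mir326 -0.67 (0.133). The calls at Cd180, Nol11 and Mir326 were also lost without GrnKO replicate 1. Input subtraction kept 6 of the 23 higher and 2 of the 22 lower calls.

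The strongest regions were picked for their WT level, a choice that favours lower values in GrnKO, so their changes are a description. The highest was a B1_Mur1 element 11110 bp upstream of Ctsd (chr7:142398580-142399380), the gene of the lysosomal protease cathepsin D. It carried 836 and 905 tags in WT and 1000 and 1084 in GrnKO. GrnKO was above WT in both libraries, but the difference missed the threshold (1.20-fold, adjusted p = 0.106, limma). A MIR element in intron 7 of Cflar, an inhibitor of caspase 8, carried 782 and 924 tags in WT and 708 and 823 in GrnKO. A MIR element 3031 bp upstream of Lgmn, a lysosomal endopeptidase, carried 593 and 776 against 629 and 659. In both the groups overlapped (adjusted p = 0.439 and 0.774).

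A PB1D10 element in the first intron of Serinc3, listed under 0610039K10Rik, was the other strong B1-family region, with 846 and 706 tags in WT against 482 and 539.6 in GrnKO (1.52-fold lower, adjusted p = 0.00342). This call was lost with the authors' scaling (adjusted p = 0.474) and without GrnKO replicate 1. The strongest B2-family regions were a B3A element near Mknk2 (455 and 508 tags in WT, 523 and 550 in GrnKO) and a B3 element in intron 19 of Armc9 (435 and 489 against 539 and 515). Neither passed (adjusted p = 0.463 and 0.362). A B4 element in the first intron of Susd3, a sushi-domain gene, carried 656 and 760 tags in WT and 502 and 552 in GrnKO (adjusted p = 0.0278). An ID4_ element nearest to Capn3 carried 510 and 472 tags in WT and 331 and 364 in GrnKO (adjusted p = 0.0194). Those 2 calls were lost with the authors' scaling, with no filter and without either GrnKO library. The strong regions nearest to Gm8013 (B4A) and Gpr183 (ID4) overlapped between genotypes or missed the threshold, with adjusted p-values of 0.503 and 0.446.

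Regions past the threshold near lysosomal genes were read against 11.3% of all tested SINE regions, of which 70.4% were higher. Of 51 tested SINE regions nearest to genes of a 75-gene lysosome list, 10 were higher and 2 lower in GrnKO (23.5%), with a median log2 change of 0.13. Among all 582 tested distal regions of these genes 106 were higher and 14 lower (20.6%, median 0.16). A B3A element in the first intron of Gpnmb (chr6:49039331-49040131), a lysosomal glycoprotein of lipid-laden and damaged-tissue macrophages, carried 6.26 and 5.24 tags in WT and 70.7 and 62.1 in GrnKO. Both GrnKO values lay above both WT values. This region and the Cd63 region entered the test only through GrnKO, and could be called only as higher, so their values are a description. Atp6v1a, the catalytic subunit of the lysosomal proton pump, had 2 higher regions in its first intron. The B1F element there carried 27 and 17 tags in WT and 83.4 and 98.7 in GrnKO, and the B4A element 13.3 and 6.29 against 41.0 and 25.4. Both were separate between genotypes (adjusted p = 0.000532 and 0.0389). The B4A call was lost without either GrnKO library and with no filter.

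Psap, which encodes the precursor of the saposins that help degrade sphingolipids, had 4 SINE regions past the threshold of 8 tested. A MIR3 element 15799 bp upstream carried 254 and 202 tags in WT and 408 and 436 in GrnKO (1.85-fold, adjusted p = 0.000849). One of the inputs, GrnKO replicate 2, had 89.8 scaled tags in that region, against 0 to 4.86 in the others. A PB1 and a PB1D9 element at 8700 and 8379 bp upstream overlapped each other and rose 1.80-fold and 1.68-fold. The B4 element in the first intron went the other way, from 298 and 266 tags to 184 and 198 (1.48-fold lower, adjusted p = 0.031). That call was lost with no filter and with the authors' scaling (log2 change -0.34, adjusted p = 0.523, limma). Except for the MIR3 element, these calls were lost without either GrnKO library, and edgeR did not call the PB1 and PB1D9 regions. The PB1D9 call was also lost with DESeq2, with no filter and without WT replicate 1. The remaining lysosomal calls were Cd63 (B3), a tetraspanin of late endosomes, with 4.30 and 4.45 tags in WT and 25.2 and 17.3 in GrnKO, and Scarb2 (B1F1), a lysosomal membrane receptor, Fnip2 (B4A), a folliculin partner in nutrient sensing at the lysosome, and Npc1 (PB1), the lysosomal cholesterol transporter. The last 3 rose 2.42-fold, 3.59-fold and 1.65-fold, with adjusted p-values of 0.0176 (Npc1) to 0.0291 (Scarb2, limma). All 4 calls were lost without GrnKO replicate 2. Cd63, Scarb2 and Fnip2 were also lost without GrnKO replicate 1, and Cd63 with no filter and with a minimum of 20 tags. In the Scarb2 region the input of WT replicate 1 had 52.7 scaled tags, against 18 and 26.2 H3K27ac tags in WT and 54.3 and 52.4 in GrnKO. The second lower region of this list was the one beside Grn.

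Lipid genes showed 3 higher regions and no lower one among 10 tested SINE regions (30%), with a median log2 change of 0.58 (38 higher and 1 lower of 179 distal regions). A PB1D10 element 17637 bp upstream of Pparg, a nuclear receptor of lipid metabolism, carried 27.8 and 12.1 tags in WT and 135 and 114 in GrnKO. Both GrnKO values were well above both WT values (6.26-fold, log2 change 2.69, SE 0.35, adjusted p = 8.91e-05). A PB1D7 element 19767 bp upstream of Plin2, which coats lipid droplets, carried 14.9 and 18.3 tags in WT and 75.5 and 78.7 in GrnKO (4.64-fold, adjusted p = 0.000437). The third was the Npc1 region. On the list of disease-associated microglia genes, the Plin2, Gpnmb and Cd63 regions were higher and none was lower of 23 tested (13%, near the 11.3% of all tested SINE regions, median 0.33), against 92 higher and none lower of 350 distal regions (26.3%). Of these 3, the Gpnmb and Cd63 regions entered the test only through GrnKO.

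**Figure D5:**
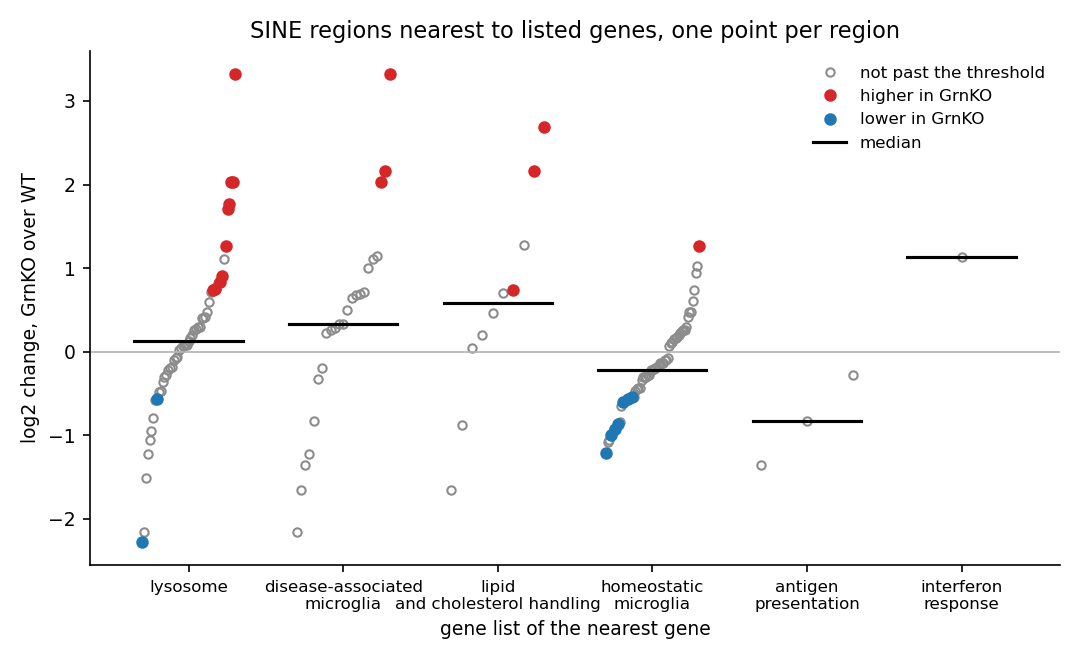
Log2 change (GrnKO over WT) of each tested SINE region whose nearest gene is on the named list; filled points passed the threshold, and black bars are medians. Lysosome, disease-associated and lipid lists have medians of 0.13, 0.33 and 0.58, and the homeostatic list -0.22.

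Regions nearest to genes of homeostatic microglia passed about as often as others. Of 61 tested SINE regions 7 were lower and 1 was higher (13.1%, against 11.3% of all tested SINE regions, of which 89 of 301 were lower), with a median log2 change of -0.22, against 77 lower and 33 higher of 858 distal regions (median -0.16). Besides the Cx3cr1 pair, a B3A element upstream of Selplg, the P-selectin ligand, carried 414 and 428 tags in WT and 272 and 305 in GrnKO. A PB1D9 element in the first intron of Tgfbr1, a receptor of TGF-beta, carried 106 and 73.9 tags in WT and 35.9 and 39.4 in GrnKO. Both were separate between genotypes (adjusted p = 0.0161 and 0.0106). Regions near Rhob (MIRb) and Cd33 (RSINE1), a sialic acid receptor of microglia, fell 1.91-fold and 1.47-fold. Pmepa1, a target and inhibitor of TGF-beta signalling, had an RSINE1 element that fell 2.03-fold and a MIR element in the same intron that rose 2.48-fold, with adjusted p-values of 0.0273 and 0.04. In the MIR region the inputs of WT had 54 and 10.7 scaled tags, against 17.2 and 18.3 H3K27ac tags in WT and 40.7 and 47.3 in GrnKO. All 7 lower calls but that at Tgfbr1 were lost with the authors' scaling. With no filter, the Selplg, Rhob and Cd33 calls and those of the Cx3cr1 PB1 and Pmepa1 MIR elements were lost. The Selplg, Rhob, Cd33 and both Pmepa1 calls were also lost without either GrnKO library, that at Tgfbr1 without GrnKO replicate 1 and that of the Cx3cr1 PB1 element without GrnKO replicate 2, and edgeR did not call the Cd33 region. Microglial marker start sites as a group were also lower in GrnKO, as given above. For antigen presentation 3 regions and for the interferon response 1 region could be tested, and none passed with limma, edgeR or DESeq2 (1 and 0 at an unadjusted p under 0.05).

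Changed SINE regions lay among other changed regions about as often as changed distal regions in general. Of the 301, 172 (57.1%) overlapped another listed region and 126 (41.9%) overlapped a region that also passed, against 55.1% and 40.2% of all distal regions past the threshold. Within 10000 bp, 219 (72.8%, against 70.2% of all distal regions past it) had another region past the threshold in the same direction and 4 in the opposite direction, while 82 had none. The 301 regions had 269 different nearest genes, of which 25 had at least 2. Mir6403 had 4 higher regions of 5 tested (log2 changes of 1.22 to 1.61), and Sash1 and Snx24 had 3 higher each. The B1F and B1F1 regions of Sash1 entered the test only through GrnKO and could be called only as higher. Susd3 had 3 lower of 3 tested (-1.02 to -0.42). Among regions that overlap no other, 122 of 1202 tested passed (10.1%, against 9.11% of all such regions), 96 higher and 26 lower.

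The same test was run between the inputs of the genotypes. None of 2247 SINE regions passed with limma, where 8 had an unadjusted p under 0.05, and none of 155 passed with a filter on the inputs' own tags (23 at an unadjusted p under 0.05). Over all regions 0% passed in both. Input tags were sparse, with 39.2% to 89.7% of the 5066 regions at 0, and 222 regions held more than 50 scaled tags in 1 input and in no second one. Of these, 18 were among the 301 changed regions, and without the 222 regions 283 remained past the threshold.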

How the data were processed

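H3K27ac and input libraries were analysed from a table deposited by the authors, made with Bowtie2 and HOMER on mm10 per the submitters' processing notes, which also name DESeq2. Its values are a signal: tags per listed region of 800 bp, scaled by the authors to 10000000 tags per library per the file headers. How duplicate and multiply mapped reads were treated is not given in the sources used here. Totals in the headers gave back whole read ends, 2 per tag, for 100% of values (tolerance 0.1). Regions with at least 10 tags by edgeR's filterByExpr by genotype were scaled with TMM factors and tested with limma 3.58.1 (R 4.3.3, trend) on log2 of scaled tags plus 1, with no covariate, over all 80728 regions passing. Adjustment was by Benjamini-Hochberg, with calls at an adjusted p under 0.05. Log2 changes are on that scale, and folds are ratios of mean TMM-scaled tags. Shares, ratios and inputs use the authors' scaling. Regions without any spread between libraries of a genotype (residual spread 0) were left out of a fit. edgeR 4.0.16 and DESeq2 1.42.0 on the read ends, other scalings, filters, a replicate block and leaving out each library were alternatives. The fit was tested on simulated data. Libraries are pools of 2 mice. The limma p-values rest on the spread between 2 pools per genotype, drawn towards a trend of that spread over all tested regions.

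Named regions were the 8 higher and 8 lower with the smallest p whose groups do not overlap, 2 in each direction and the 2 strongest in WT per family with 20 or more tested regions, and those past the threshold near genes of 6 lists (lysosome, disease-associated and homeostatic microglia, antigen presentation, interferon response, lipid handling). The members, lists and rules were chosen with earlier results of these data known. The test of H3K27ac against input shares, the CTCF motif and the count of regions by which genotype met the tag minimum were added after seeing the data. Gene names are those of the table; 3579 of 3585 matched RefSeq names or synonyms of GRCm38.p6. The limit for a count of 0 is 3 tags.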

Additional observations from a re-analysis of the deposited data

How the results depend on the processing

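The 301 changed SINE regions (212 higher, 89 lower) were recomputed under each alternative. edgeR called 273 of the tested regions and DESeq2 303, with 268 and 280 shared with the 301. Pseudocounts, DESeq2 size factors, TMM on non-repeat regions, array weights, a minimum of 20 tags, a distance above 3000 bp and leaving out regions with more than 50 input tags (283, chosen after seeing the data) kept every count within 1.5 times. Leaving out single libraries gave 86 to 551 calls, 69 to 363 higher and 17 to 188 lower, with 27 to 123 in B1, 12 to 95 in B2, 27 to 187 in B4, 1 to 25 in ID, 19 to 124 in MIR and 0 to 7 in the small families. Regions overlapping no other gave 122 calls (96 higher, 26 lower, B1 28, B2 15, B4 40, ID 5, MIR 32), from fewer regions tested. Input subtraction gave 14 (12 higher, 2 lower, B1 1, B2 3, B4 5, ID 0, MIR 5, small families 0), and the cause was not tested. A 2-fold minimum gave 189 (31 lower, B1 46, B4 61, MIR 45), and an adjusted p under 0.1 gave 144 lower, ID 16 and MIR 111. The authors' scaling gave 13 lower and ID 5. With no filter on low values, where 1471 regions without spread were left out, 45 were lower. The replicate block gave 414 calls, of which 279 higher and 135 lower, and included all 301. The labels do not say that replicate numbers pair the libraries, and deviations of same-numbered libraries correlated at 0.0344, although Xist and Y-linked signal followed the number in both genotypes. Median log2 changes moved beyond the spread between replicates as follows. The authors' scaling gave 0.22 for all SINE regions, 0.2 for B1, 0.19 for B2, 0.25 for B4, 0.14 for ID and 0.26 for MIR. edgeR and DESeq2 gave -0.03 and -0.04 for all, -0.05 and -0.06 for B1, and -0.12 and -0.12 for ID. No filter gave 0.01 (B1), -0.09 (B2) and -0.01 (ID), regions overlapping no other 0.05 (all), 0.11 (B4) and 0.17 (MIR), input subtraction -0.04 (B4) and -0.03 (ID), and a distance above 3000 bp 0.01 (B1). Without single libraries the medians ran from -0.03 to 0.02 in B1, -0.02 to 0.05 in B2 and -0.07 to 0.00 in ID. Differences in the share of distal tags, in percentage points GrnKO minus WT, moved to 0.0288 (SINE), 0.0219 (B1), -0.00196 (B4) and -0.00302 (ID) above 3000 bp. They were 0.0813 (SINE), 0.0164 (B1), -0.0298 (B2), 0.0475 (B4), -0.0119 (ID) and 0.0496 (MIR) in regions overlapping no other. Without the strongest 1% of regions they were -0.0273 (SINE) and -0.0209 (B2), and in regions passing the filter 0.0102 (B2). The H3K27ac to input ratio differed by 2.96 (B2) and 11.4 (ID) in regions passing the filter. Of the named regions, those at Gm8013 (0.09), Gpr183 (0.05), Cflar (0.07) and Lgmn (0.15), which did not pass the test, changed sign with the authors' scaling, as did Lgmn without WT replicate 2 (values without single libraries -0.27 to 0.12). Depth limits B2 regions most, with medians of 1.70 to 3.13 tags and 70.2% of them not tested.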

Other observations

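Of 25 genes with at least 2 changed SINE regions, 15 had all of them higher, 5 all lower and 5 in both directions (Capn3, Pmepa1, Psap, Snx29 and Zfp648), where 70.4% of all changed SINE regions were higher. A few of the 15 are named here after their values were seen. Keap1, the sensor that holds the oxidative stress factor NRF2 in check, had both of its SINE regions higher in GrnKO. Its ID_B1 region carried 16.8 and 21.5 TMM-scaled tags in WT and 80.0 and 78.0 in GrnKO, and its B3 region 4.30 and 8.12 against 32.8 and 25.2 (adjusted p = 0.000651 for the ID_B1 region, limma). The B3 region, like the B1F and B1F1 regions of Sash1, entered the test only through GrnKO and is given as a description. Osbpl8, which encodes a lipid transfer protein of membrane contacts, had 2 of 7 tested regions higher: a B1F2 region with 64.5 and 79.9 tags in WT against 220.3 and 190.3 in GrnKO, and a MIR region with 49.7 and 70.2 against 195 and 195.
Zfp36l1, an RNA-binding protein that speeds the decay of cytokine messages, had 2 higher MIRc regions. The stronger of them carried 36.8 and 41.9 tags in WT and 152 and 128 in GrnKO. Sash1, a scaffold of toll-like receptor signalling, had 3 higher regions of 4 tested, in B1F, B1F1 and ID_B1 elements. The B1F region carried 4.69 and 3.93 tags in WT and 57.1 and 39.0 in GrnKO. The Mir6403 locus had 4 higher regions in B4, B4A and MIRb elements, and in each of them the WT replicate 2 value lay between that of WT replicate 1 and both GrnKO values. In each region with values here both GrnKO values were above both WT values.

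The largest fitted changes were in regions near the detection limit of one genotype. An AmnSINE1 region nearest to Prkch, a protein kinase C, carried 0.390 and 0.520 tags in WT and 22.6 and 16.8 in GrnKO, and an RSINE1 region nearest to Tsc22d2 carried 0.780 and 2.10 against 30.8 and 31.8. In the other direction a MIRc region nearest to C330024C12Rik carried 22.3 and 17.6 tags in WT and 1.13 and 1.38 in GrnKO. Such regions entered the test only through the genotype in which they are high, so these values are a description, and the size of the fitted changes depends on the pseudocount.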
